A study of Mus musculus with 2 samples.

Results

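The miR-148/152 family of microRNAs (miRNAs) is encoded in the mouse by 3 genes, Mir148a, Mir148b and Mir152, and its level was measured in the adrenal glands of newborn pups. The members were taken by gene symbol, and all 3 of them were found among the 1973 miRNA genes of the deposited tables. The study holds 1 group of 2 libraries, called pup 1 and pup 2, and each library was made from both adrenals of a B6NCrl pup at postnatal day 0. The pups came from the same pregnancy, their sex was not collected, and the labels name no treatment, engineered allele or second tissue. The sample descriptions name 2 pups, whereas a single donor code stands on both records. Should that code mean 1 animal, the spread between the libraries would be technical. The libraries were restricted to RNA below 30 bases.

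miRNAs are cut from hairpin precursors and guide the silencing complex to target transcripts, mainly through the seed, bases 2 to 8 of the mature strand. The miR-148/152 family is known for acting on the DNA methyltransferase gene Dnmt1, and in the liver miR-148a is known to act on the low-density lipoprotein receptor and the cholesterol exporter Abca1. The adrenal joins a steroid-producing cortex, which uses cholesterol, with a medulla of chromaffin cells. In whole glands, fewer cells of a type and less RNA per cell cannot be told apart.

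The mature 3p strands are shown because they carry the sequence that defines the family, with the seed in capitals, as listed by RefSeq for GRCm38.p6.
mmu-miR-148a-3p: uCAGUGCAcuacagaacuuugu
mmu-miR-148b-3p: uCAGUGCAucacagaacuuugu
mmu-miR-152-3p: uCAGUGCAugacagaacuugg
All 3 strands had the seed CAGUGCA, and no other entry among the 1738 mature mouse sequences of that table had it. Counted from the 5′ end of miR-148a-3p, miR-148b-3p differed by C9U and U10C, directly after the seed. Over the 21 bases that miR-152-3p shares in position with miR-148a-3p, it differed by C9U, U10G and U20G. Between miR-148b-3p and miR-152-3p the differences were C10G and U20G.

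The hairpins show where those strands lie, and here the capitals mark the mature 3p strand.
Mir148a hairpin: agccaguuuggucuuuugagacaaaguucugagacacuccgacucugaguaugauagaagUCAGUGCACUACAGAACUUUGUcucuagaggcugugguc
Mir148b hairpin: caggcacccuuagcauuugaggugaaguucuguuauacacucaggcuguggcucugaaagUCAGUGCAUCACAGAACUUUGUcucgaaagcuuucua
Mir152 hairpin: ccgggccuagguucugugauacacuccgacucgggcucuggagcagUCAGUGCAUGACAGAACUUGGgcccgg
The Mir152 hairpin was the shortest, at 73 bases against 99 for Mir148a and 97 for Mir148b. Its GC content was 61.6%, against 45.5% for Mir148a and 45.4% for Mir148b. The minimum free energy predicted by RNAfold was -43.5 kcal/mol for Mir152, -41.0 for Mir148a and -30.9 for Mir148b. In the predicted folds, 19 of the 21 bases of miR-152-3p were paired, 19 of 22 of miR-148a-3p and 17 of 22 of miR-148b-3p.

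The opposite, 5p strands are shown because the deposited counts are per gene and add both strands of a hairpin, and again the seed is in capitals.
mmu-miR-148a-5p: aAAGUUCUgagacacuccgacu
mmu-miR-148b-5p: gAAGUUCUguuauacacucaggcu
mmu-miR-152-5p: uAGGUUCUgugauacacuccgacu
miR-148a-5p and miR-148b-5p had the same seed, while that of miR-152-5p differed, so the family is held together by its 3p strands. The shares of 5p and 3p strands in the counts were not measured here.

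Each mature 3p sequence was found in the hairpin of 1 gene only. A scan of 141767 GENCODE transcripts found each 3p sequence in its own gene and in no other. The longest stretch that miR-148a-3p or miR-148b-3p shared with any other hairpin was 12 bases, and that was with each other. For miR-152-3p it was 11 bases, with the hairpin of Mir878. Reads that map to several loci were left out of the deposited gene counts, and they made up 34.9% of all reads in pup 1 and 32.2% in pup 2.

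The genes lie on separate chromosomes of mm10. Mir148a (ENSMUSG00000065505.1) lies at chr6:51269812-51269910 on the minus strand. The nearest end of any other annotated gene, that of the noncoding Gm32479, is 13.6 kb away. Whether a longer gene spans Mir148a was not tested. Mir148b (ENSMUSG00000065560.1) lies at chr15:103285125-103285221 on the plus strand, in intron 1 of Copz1 in all 4 annotated transcripts of that gene. Mir152 (ENSMUSG00000065515.1) lies at chr11:96850393-96850465 on the plus strand, in intron 1 of Copz2 in 3 of its 5 annotated transcripts, and outside the other 2. It starts 523 bases after the annotated start of Copz2. Copz1 and Copz2 are paralogues that encode the zeta subunits of the COPI vesicle coat, and both miRNAs lie on the strand of their host. Host transcripts were not measured here.

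The paralogy extended beyond the hosts. On the 5′ side of each miRNA lay a gene of the Nfe2 family of transcription factors and a gene of the Cbx family of chromatin proteins. These genes lie on the strand opposite to the miRNA, except Cbx1, which lies on the strand of Mir152. Nfe2l1 was 20.4 kb and Cbx1 41.8 kb from Mir152. Nfe2 was 26.7 kb and Cbx5 45.3 kb from Mir148b, and Nfe2l3 was 163 kb and Cbx3 200.4 kb from Mir148a. A gene of the Hnrnpa family of RNA-binding proteins lay between those 2 genes at Mir148a (Hnrnpa2b1) and at Mir148b (Hnrnpa1), and none lay within 300 kb of Mir152. Further out on the same side came miRNA genes of a Hox cluster, of which the nearest was Mir615 for Mir148b at 270 kb, Mir10a for Mir152 at 533 kb and Mir196b for Mir148a at 960.2 kb. The map of the neighbourhoods shows the Nfe2, Cbx and Hox cluster genes in the same order at all 3 loci.

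**Figure D1:**
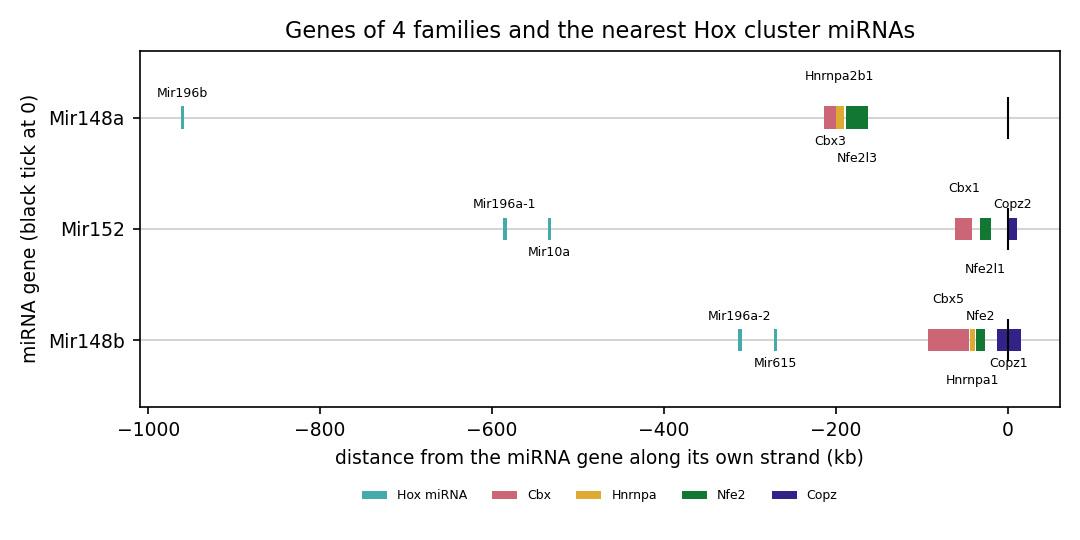
Genes around the 3 miRNAs, by distance in kb along the strand of each miRNA (black tick at 0), with bars to scale except that genes under 4 kb are widened to be visible; only the Copz, Nfe2, Cbx and Hnrnpa genes and the nearest Hox cluster miRNAs are drawn. At each locus the order away from the miRNA is Nfe2 family, Cbx family and Hox cluster miRNAs, the nearest of which is 270 kb away for Mir148b, 533 kb for Mir152 and 960.2 kb for Mir148a.

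The tables held 1131762 same-strand gene counts in pup 1 and 3327743 in pup 2. Levels are counts per 1000000 of these gene counts (CPM), and all 3 members had a count in both pups. No member had a count on the opposite strand in either pup. A mean of 10 CPM or more was reached by 284 of the 1973 genes, all 3 members among them, and the median of those 284 genes was 275 CPM.

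Mir148a was the leading member. It had 581 counts in pup 1 and 2204 in pup 2, which is 513 CPM (95% counting interval 472 to 557) and 662 CPM (635 to 691). Its mean was 588 ± 105 CPM (SD, n = 2), which ranked 103 of all 1973 genes and above the median of the 284 genes.

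Mir152, the gene within Copz2, came next. It had 200 counts in pup 1 and 755 in pup 2, which is 177 CPM (153 to 203) and 227 CPM (211 to 244). The mean was 202 ± 35.5 CPM (SD, n = 2), at rank 155.

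Mir148b, the gene within Copz1, was the lowest. It had 108 counts in pup 1 and 480 in pup 2, which is 95.4 CPM (78.3 to 115) and 144 CPM (132 to 158). The mean was 120 ± 34.5 CPM (SD, n = 2), at rank 178, so both members within Copz hosts lay below the median of the 284 genes.

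The order Mir148a, Mir152, Mir148b was the same in both pups, and the ranges of neighbours in that order did not overlap across the pups. The counts of Mir148a were 2.90-fold those of Mir152 in pup 1 (95% counting interval 2.47 to 3.43) and 2.92-fold in pup 2 (2.69 to 3.17). Mir152 had 1.85-fold the counts of Mir148b in pup 1 (1.46 to 2.36) and 1.57-fold in pup 2 (1.40 to 1.77). A read spans a mature strand of 21 to 24 bases, so CPM was not divided by gene length. The order also held per 100 bases of hairpin, at 519 and 669 CPM for Mir148a in pup 1 and pup 2, 242 and 311 for Mir152, and 98.4 and 149 for Mir148b.

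**Figure D2:**
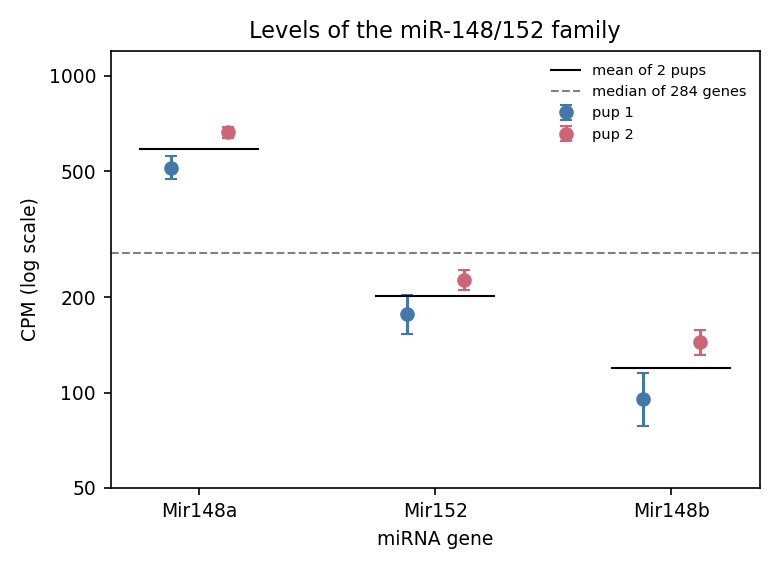
Level of each member in CPM on a log axis, with 1 point per pup, exact Poisson 95% intervals as error bars, the mean of the 2 pups as a black line and the median of the 284 genes that average 10 CPM or more as a dashed line. Mir148a lies above the dashed line in both pups, Mir152 and Mir148b lie below it, and each member is higher in pup 2.

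Together the members held 889 counts in pup 1 and 3439 in pup 2. That is 0.0786% of the miRNA gene counts in pup 1 and 0.103% in pup 2, or 909 ± 175 CPM (SD, n = 2). Mir148a gave 65.4% of the family in pup 1 (exact Clopper-Pearson 95% interval 62.1 to 68.5) and 64.1% in pup 2 (62.5 to 65.7). Mir152 gave 22.5% (19.8 to 25.4) and 22.0% (20.6 to 23.4). Mir148b gave 12.1% (10.1 to 14.5) and 14.0% (12.8 to 15.2). For each member the intervals of the pups overlapped, although the share of Mir148b in pup 1 lay below its interval in pup 2.

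The ratios between members were also compared between the pups. From pup 1 to pup 2 the ratio of Mir148a to Mir152 changed 1.00-fold, with an interval from 0.834 to 1.21. The ratio of Mir148a to Mir148b changed 0.854-fold (0.673 to 1.08) and that of Mir152 to Mir148b 0.849-fold (0.648 to 1.11). These intervals do not show that the ratios were equal, and for Mir152 and Mir148b they range from 0.648-fold to 1.11-fold.

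**Figure D3:**
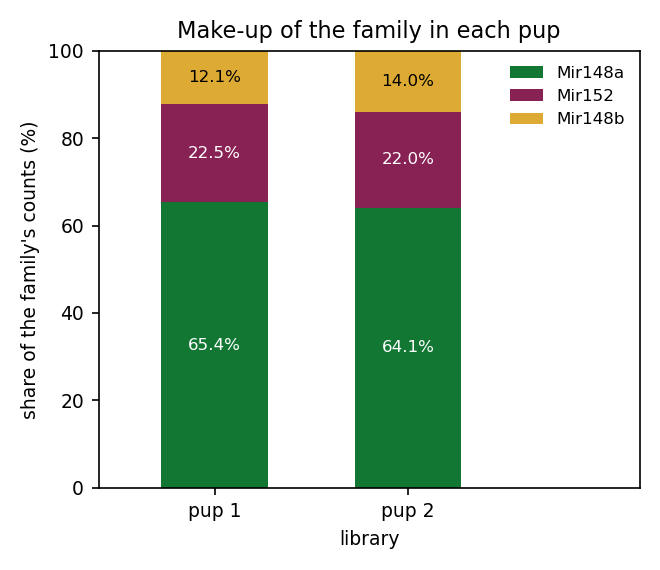
Share of the family's counts, in percent, held by each member in pup 1 and pup 2, as stacked bars that start at 0. Mir148a holds 65.4% and 64.1%, Mir152 22.5% and 22.0%, and Mir148b 12.1% and 14.0%.

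The pups were compared to see how far littermates of the same age differ. All 3 members had the higher CPM in pup 2, and so did 58.1% of the 284 genes. Mir148a was 1.29-fold higher (95% counting interval 1.18 to 1.42), Mir152 1.28-fold (1.10 to 1.51) and Mir148b 1.51-fold (1.22 to 1.88). The family total was 1.32-fold higher in pup 2 (1.22 to 1.42). No interval reached 1, but the intervals hold counting error only and leave out the variation between libraries, so no p-value was computed from 1 library per pup.

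Read against all genes, the differences were moderate. With a prior of 1 CPM, the log2 ratio of pup 2 over pup 1 was 0.37 for Mir148a, 0.36 for Mir152 and 0.59 for Mir148b, and the median of the 3 was 0.37. Over the 284 genes the median was 0.08 and the quartiles were -0.22 and 0.36. A log2 ratio at least as high as that of Mir148a was found in 25.0% of the 284 genes, at least as high as that of Mir152 in 25.7%, and at least as high as that of Mir148b in 12.3%. None of the 3 members reached a 2-fold difference, which 5.28% of the 284 genes did, 3.52% as higher and 1.76% as lower in pup 2. With edgeR's TMM scaling the median of the 284 genes moved up by 0.10. Relative to the median of the 284 genes, Mir148a lay at 0.29, Mir152 at 0.28 and Mir148b at 0.51 both with CPM and with TMM scaling. TMM shifts all genes alike apart from the effect of the prior, so these distances stay nearly the same by construction.

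**Figure D4:**
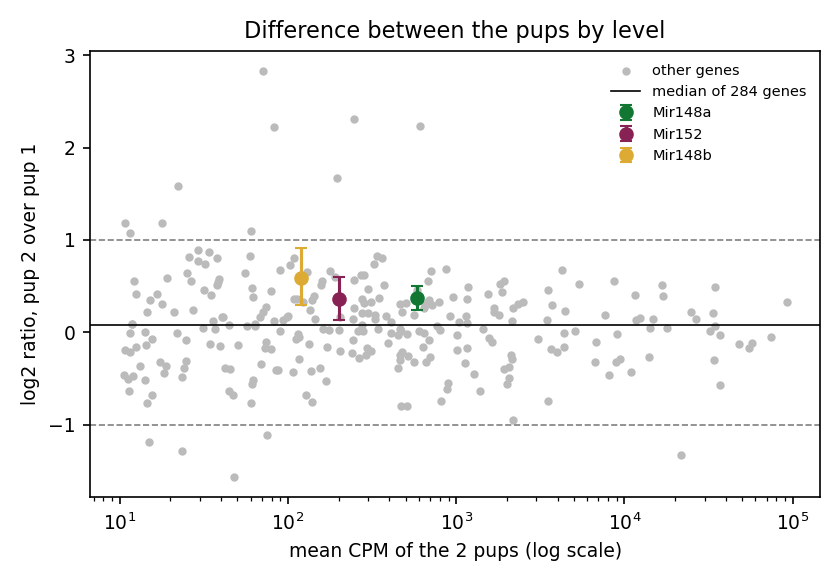
Log2 ratio of pup 2 over pup 1 against the mean CPM on a log axis for the 284 genes that average 10 CPM or more, with the members in colour, their 95% counting intervals of the plain CPM ratio as error bars, dashed lines at 2-fold and the median of all genes as a solid line. The members lie at 0.37, 0.36 and 0.59, above the median of 0.08 and within the 2-fold lines.

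Depth and some markers of other cell types also differed between the pups, the markers not all in the same direction. The library of pup 2 was 2.94-fold deeper than that of pup 1. Mir122, the abundant miRNA of hepatocytes, a cell type also known for abundant miR-148a, had 2979 CPM in pup 1 and 4081 in pup 2, a log2 ratio of 0.45. Of 5 listed kidney miRNAs, 4 reached a mean of 10 CPM, 3 of them higher and 1 lower in pup 2, and the list summed to 293 CPM in pup 1 and 352 in pup 2. The lower one, Mir215, had 72.5 CPM in pup 1 and 23.7 in pup 2, the only one of the 4 past 2-fold. The higher ones were Mir192 (101 and 158 CPM), Mir204 (76.9 and 128) and Mir194-2 (30.0 and 40.0). Mir194-1, under the minimum, had 13.3 and 2.70 CPM. Mir194-1 and Mir194-2 each have a mature strand shared with another gene, so their multi-mapped reads were not counted. Of the erythroid genes, Mir451a had 261 and 263 CPM, a ratio of 1.01 (0.882 to 1.15), and Mir144 had 20.3 and 38.5 CPM. The 3 measured leukocyte genes, 2 of them higher in pup 2, summed to 866 and 1023 CPM. The part of these features in the members' values was not tested.

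The other marker lists ranged from near 0 to levels above those of the members. The 3 listed miRNAs of the exocrine pancreas, a tissue also known for abundant miR-148a, summed to 0.884 and 2.10 CPM in pup 1 and pup 2, with Mir216a at 0 counts in both. Of the 3 skeletal muscle genes, Mir206 alone reached a mean of 10 CPM, and the list summed to 84.8 and 415 CPM. The islet and neuroendocrine list, led by Mir375, summed to 39765 CPM in pup 1 and 33410 in pup 2, with 2 of its 4 genes higher and 2 lower in pup 2. Mir375 had 37586 CPM in pup 1 and 30415 in pup 2, while Mir7b had 1557 and 2293 CPM. Mir7-1 and Mir7-2 each have a mature strand shared with another gene, so the sum leaves out their multi-mapped reads. Of the miRNAs listed for adrenocortical and gonadal tissue, Mir202 had 1065 and 728 CPM, Mir483 had 648 and 794 CPM, and Mir675 had 7.07 and 15.9 CPM. Messenger RNA markers that define adrenal cells were not measured.

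The miR-130/301 family was set beside the members because its mature strands carry the same bases shifted by 1 position. The sequences are shown with their own seed in capitals.
mmu-miR-130a-3p: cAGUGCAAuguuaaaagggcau
mmu-miR-130b-3p: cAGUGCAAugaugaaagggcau
mmu-miR-301a-3p: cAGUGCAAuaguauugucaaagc
The letters AGUGCA start at base 3 of the miR-148/152 strands and at base 2 of these. Within the first 9 bases they were found in 12 of the 1738 mature sequences, or 0.690%, of which 3 are the family's own. Mir130a had 11776 CPM in pup 1 and 13059 in pup 2, which is 22.9-fold the counts of Mir148a in pup 1 (21.1 to 25.0) and 19.7-fold in pup 2 (18.9 to 20.6). Mir130b had 1612 and 1541 CPM, and Mir301b had 36.2 and 33.1 CPM. Mir301 lay closest to Mir148a, with 588 and 724 CPM. The 4 measured genes listed for that family summed to 14013 CPM in pup 1 and 15357 in pup 2, with 2 higher and 2 lower in pup 2. Mir130c, which was not on that list, had 0 counts in both pups.

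The miR-29 family is known for acting on the DNA methyltransferases Dnmt3a and Dnmt3b. Of its genes, Mir29a had a level near that of Mir148a, and Mir29c one near that of Mir148b. Mir29a had 603 CPM in pup 1 and 769 in pup 2, 1.18-fold the counts of Mir148a in pup 1 (1.05 to 1.32) and 1.16-fold in pup 2 (1.10 to 1.23). Per 100 bases of hairpin it also lay above Mir148a, with 686 and 874 CPM against 519 and 669. Mir29c, with 99.0 and 127 CPM, was not separated from Mir148b, since the ratio of Mir29c to Mir148b was 1.04 (0.789 to 1.36) in pup 1 and 0.879 (0.770 to 1.00) in pup 2. Mir29b-1 and Mir29b-2 had means of 31.4 and 0.893 CPM, but they encode the same mature strand, so their multi-mapped reads were not counted. The 4 genes of the miR-29 list summed to 734 and 929 CPM without those reads, beside 786 and 1033 CPM for miR-148/152. How far this lowers the sum of the miR-29 list was not measured.

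Other miRNAs that lie in introns of paralogous hosts were compared through the genes with a mature strand of their own. Mir26b, of the Ctdsp phosphatase hosts, had 25232 CPM in pup 1 and 27871 in pup 2, 49.1-fold and 42.1-fold the counts of Mir148a. Mir107, of the pantothenate kinase hosts, had 1464 CPM in pup 1 and 1073 in pup 2, so it was lower in pup 2 while the members were higher. Mir26a-1, Mir26a-2, Mir103-1 and Mir103-2 share mature strands between copies, and their means ran from 2.52 to 38.8 CPM without multi-mapped reads.

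**Figure D5:**
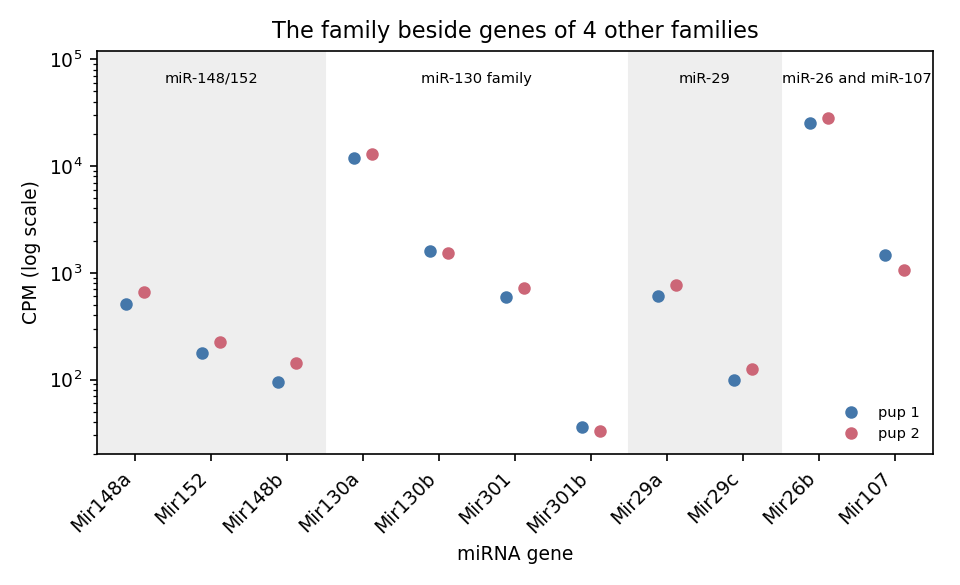
CPM on a log axis of the 3 members and of single-locus genes of 4 other families, with 1 point per pup and no error bars. The members lie between 95.4 and 662 CPM, near Mir29a, Mir29c and Mir301, below Mir130a, Mir130b, Mir26b and Mir107, and above Mir301b.

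The Hox cluster miRNAs on the same chromosomes gave no single order relative to the members. Near Mir152, Mir10a had 75963 and 73019 CPM, while Mir196a-1 had 19.4 and 22.8 CPM. Mir152 had 9.09-fold the counts of Mir196a-1 in pup 1 (5.84 to 14.8) and 9.93-fold in pup 2 (7.84 to 12.7). Near Mir148b, Mir615 had 2307 and 1938 CPM and Mir196a-2 had 277 and 348 CPM, both above Mir148b. Mir196a-1 and Mir196a-2 share a mature strand, so their counts leave out reads that map to both. Near Mir148a, Mir196b had 212 CPM in pup 1 and 1001 in pup 2, so it was 0.413-fold the counts of Mir148a in pup 1 (0.354 to 0.481) and 1.51-fold in pup 2 (1.43 to 1.60).

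The genes most like each member were found by the distance between log2(CPM + 1) values over the 2 pups, which describes level more than pattern with 2 samples. Mir195a, with 497 and 680 CPM, was nearest to Mir148a, at a distance of 0.06, followed by Mir341 and Mir300. Mir410 was nearest to Mir152, with 176 and 227 CPM and a distance of 0.01, followed by Mir700 and Mir328. For Mir148b the nearest was Mir192, with 101 and 158 CPM and a distance of 0.15, followed by Mir29c and Mir221.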

How the data were processed

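The values deposited by the authors are raw counts of reads for each miRNA gene, 1 table per library, unscaled and unpooled. The deposited sample notes name mm10 and the annotation GENCODE M4. Which aligner and trimming were used is not stated in the sources used here. Each table has 3 count columns (unstranded, same strand, opposite strand), a layout like that of STAR, and 4 rows that name no gene. Those rows held 49.6% of reads in pup 1 and 47.3% in pup 2, and were left out of library sizes.

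CPM was computed from the same-strand column, and symbols, hosts and distances came from GENCODE M21 on the same assembly, in which 1894 of 1973 rows had a symbol. Sequences came from RefSeq (GRCm38.p6), where all 3 members matched. Intervals are exact Poisson, conditional Poisson (ratios) or Clopper-Pearson (shares), and a change of ratio has an exact conditional odds ratio interval. They cover counting error only, since they hold no term for variation between libraries. PCR copies of a molecule cannot be told from separate molecules, so intervals and floors refer to reads and not to molecules. With 1 group there was no test. The ratio functions were tested on simulated Poisson counts, the model the intervals assume. That test holds no variation between libraries, so it checks the computation and not the fit to these libraries.

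The members, lists and comparisons were chosen with earlier results of these data known. Named genes were the members, the 3 nearest genes to each, and listed genes set beside them. The neighbouring gene families and the search for AGUGCA were chosen after the files were seen. Mir142 and Mir721 were listed but matched no row by symbol. Alternatives used the unstranded column, other denominators, hairpin length, edgeR 4.0.16 TMM, DESeq2 1.42.0 size factors, other priors and minimum levels, and single pups. Folds were predicted with RNAfold 2.7.2. Python 3.11.15 and scipy 1.17.1 were used.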

Additional observations from a re-analysis of the deposited data

How the results depend on the processing

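All 3 members were higher in pup 2, and the order Mir148a, Mir152, Mir148b held in both pups. This was so with the unstranded column, all reads as the denominator, the total without the 10 most abundant genes, TMM and DESeq2 scaling. The order could not change under these settings, since each scales all genes of a library alike. The members' unstranded counts also equal their same-strand counts. Division by hairpin length could change the order, and it held there in both pups too. Most of the 284 genes were also higher in pup 2, 58.1% of them with CPM and 58.5% with the unstranded column. That share was 63.4% over all reads, 55.6% without the 10 most abundant genes, 65.8% with TMM and 61.6% with DESeq2. The log2 ratios stayed within their counting intervals under the scalings, priors and unstranded column tried. The CPM levels follow the denominator by construction. Over all reads they were 304 for Mir148a, 104 for Mir152, 62.1 for Mir148b and 470 for the family, and without the 10 most abundant genes 1182, 406, 241 and 1829. Per 100 bases of hairpin, Mir152 rose to 276 CPM and 27.9% of the family, and Mir148a held 59.8%. In single pups Mir148a ranged from 513 to 662 CPM, Mir152 from 177 to 227, Mir148b from 95.4 to 144 and the family from 786 to 1033. Their shares ranged from 64.1% to 65.4%, 22.0% to 22.5% and 12.1% to 14.0%. Of the 284 genes, 10 (3.52%) passed 2-fold upwards in pup 2 and 5 (1.76%) downwards. These counts were 24 and 39 with a minimum of 1 CPM, 42 and 43 with none, and 3 and 1 with a minimum of 100 CPM. The minimum sets how many genes enter, so these counts cannot be set against the percents above. With a minimum of 1 CPM more genes passed downwards than upwards, unlike with a minimum of 10 CPM. At such levels a gene rests on few counts, as 1 count in pup 1 is 0.884 CPM. No paired analysis was possible because the series has 1 group. At the depth of pup 1, Mir148b rests on 108 counts, with an interval from 78.3 to 115 CPM.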

Other observations

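Of the other mature sequences with AGUGCA in their first 9 bases, 5 belong to genes outside the lists above. Mir350 had 67.2 CPM in pup 1 and 81.4 CPM in pup 2, below Mir148b in both pups (95.4 and 144 CPM). Mir291b, of the miR-290 cluster known from pluripotent cells, had 8 and 29 counts, or 7.07 and 8.71 CPM. Mir130c, Mir6341 and Mir6389 were at 0 counts in each library, below a floor of 3 counts, which is 2.65 CPM (pup 1) and 0.902 CPM (pup 2). That floor is a set value and not the upper end of an exact Poisson 95% interval. In both Mir350 and Mir291b the letters start at base 3, as in the miR-148/152 strands, but the base before them differs.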
